A study of Rattus norvegicus with 48 samples.

Results

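Rnase4, Slc16a12, Ghr, Epn1 and Wdfy1 are 5 genes of 13278 that carry a symbol on the Illumina RatRef-12 BeadChip used here, and 6 probes of 22226 measured them, since Wdfy1 has a pair of probes and the other genes have 1 probe each. The genes were chosen by measured values of these arrays, because their signal changed between HLP+Apocynin-fed rats and HLP-fed rats or controls, in 1 tissue or the other. The values of those comparisons are therefore given as a description, without a test. Rnase4 encodes a secreted ribonuclease of the RNase A family. Slc16a12 encodes a plasma membrane carrier of the monocarboxylate transporter family that moves creatine. Ghr encodes the growth hormone receptor, Epn1 the endocytic adaptor epsin 1, and Wdfy1 an endosomal protein with WD repeats and a FYVE domain.

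RNA of the renal cortex and the medulla was measured on 48 arrays, 6 for each tissue and treatment. Control rats had regular chow, HLP-fed rats had chow with 5% hydroxy-L-proline, a precursor of oxalate, apocynin rats had regular chow with apocynin to drink (recorded as 4 mmol), and HLP+Apocynin-fed rats had both. The methods of the study give a concentration, 4 mM, for the water of HLP+Apocynin-fed rats. Apocynin is used as an inhibitor of NADPH oxidase. All were male, and kidneys were taken after 28 days of treatment, the number that the labels also give as age. In the methods of the study the rats were already older than that when purchased. Per the labels the rats were Wistar rats, whereas the methods of the study name Sprague-Dawley rats and do not describe a group with apocynin alone. Each array held RNA of a small piece of tissue, so fewer cells of a type and less RNA per cell cannot be told apart. In the methods of the study each rat gave both a cortex and a medulla sample. Whether equal numbers in the cortex and the medulla mark the same rat is not said in the labels, and the main fits over both tissues leave such a pairing out.

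Several properties of the series bear on these genes. The 2 tables of values name the arrays differently: 40 of 48 arrays in the log2 table carry the name of another sample, 24 that of another group, and 0 change tissue or cross between rats with and without apocynin. The names of the signal table are used here. Its columns form 1 block without apocynin (control and HLP) and 1 block with it in either tissue, and what apocynin did cannot be told apart from anything else that differed between blocks. These blocks are the order of the columns, sorted by treatment, and that order by itself does not show a batch. Cortex arrays of the first block had a median signal of at most 39.9, those of the other at least 43.5. In the medulla these ranges overlapped, with 55.1 to 61.1 in control, 49.3 to 53.5 in HLP, 60.8 to 75.1 in apocynin and 55.6 to 67.4 in HLP+Apocynin arrays. Proximal tubule markers were 11.66 to 12.16 on the cortex arrays as a mean log2 signal, against 10.18 to 12.06 on the medulla arrays. Each array was placed on the mean difference between the tissues over 12900 probes, on a scale with cortex above 0 and medulla below. On it 3 arrays lay nearer the other tissue, namely cortex control 4 (-0.93), medulla control 4 (1.04) and medulla apocynin 4 (0.91). Near 0 lay the medulla array HLP+Apocynin 5 (-0.03) and the cortex array control 3 (0.06), followed by cortex control 1 (0.32). The cortex controls as a group lay toward the medulla, with a median position of 0.43 against 1.37 in HLP, 1.24 in apocynin and 1.04 in HLP+Apocynin arrays, which touches each comparison with the cortex controls. The medulla controls lay farthest from the cortex, with a median position of -1.61 against -1.18 in HLP, -1.10 in apocynin and -0.93 in HLP+Apocynin arrays. This touches the comparisons with the medulla controls too. On the arrays numbered 3 of both apocynin groups, markers of macrophages and of fibroblasts were high in the medulla. Results that rest on these arrays are given with and without them, alternatives chosen after seeing the data.

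As background, growth hormone binds its receptor at the cell surface, which activates the kinase JAK2 and the factors STAT5A and STAT5B and raises Igf1 in liver and other tissues. Receptors are taken up in clathrin-coated pits, where epsins bend the membrane and bind ubiquitinated cargo. The vesicles fuse with early endosomes, to whose lipid phosphatidylinositol 3-phosphate FYVE domains bind. In the kidney the creatine carrier is found in the proximal tubule. In the mouse and in humans the first exons of Rnase4 are shared with the gene of angiogenin, another secreted ribonuclease.

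In the rat assembly GRCr8, Rnase4 lies at chr15:26786287-26803634, Slc16a12 at chr1:241597165-241674821, Ghr at chr2:54269066-54532595, Epn1 at chr1:77771335-77789411 and Wdfy1 at chr9:88459613-88541215. All 5 matched a RefSeq promoter window of that build. For 3 of them the 250 bases before the annotated start are printed, because the Rnase4 and Ghr differences had 1 sign in both tissues and the apocynin effect on Epn1 differed between the tissues. Capitals mark matches, on either strand, to the SP1 box GGGCGG, the CCAAT box, the TATA box TATAAA, the antioxidant response element core TGACNNNGC, the STAT core TTCNNNGAA or the E-box CACGTG.
Rnase4, chr15:26786037-26786286, plus strand: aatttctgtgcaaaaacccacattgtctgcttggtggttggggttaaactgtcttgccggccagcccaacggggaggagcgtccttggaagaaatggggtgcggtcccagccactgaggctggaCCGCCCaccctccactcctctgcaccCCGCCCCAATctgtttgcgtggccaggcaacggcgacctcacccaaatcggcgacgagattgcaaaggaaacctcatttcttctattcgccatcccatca
Ghr, chr2:54432076-54432325, minus strand: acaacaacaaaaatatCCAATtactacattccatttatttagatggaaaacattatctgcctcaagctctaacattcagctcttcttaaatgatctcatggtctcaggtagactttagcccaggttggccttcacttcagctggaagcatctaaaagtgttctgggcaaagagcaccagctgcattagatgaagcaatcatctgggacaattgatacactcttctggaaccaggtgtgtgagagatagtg
Epn1, chr1:77789412-77789661, minus strand: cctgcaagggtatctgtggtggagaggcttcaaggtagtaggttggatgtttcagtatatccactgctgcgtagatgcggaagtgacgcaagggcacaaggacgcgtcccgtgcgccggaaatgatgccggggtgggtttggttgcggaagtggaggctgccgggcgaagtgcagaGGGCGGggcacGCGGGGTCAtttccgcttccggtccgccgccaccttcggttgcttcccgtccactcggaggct
The window of Rnase4 holds GGGCGG at 2 places on the opposite strand, and the nearer one overlaps by 1 base with a CCAAT. Ghr holds 1 CCAAT, at 230 to 234 bases before the start, and 0 CpG. The windows of Ghr and Slc16a12 lie within the span of the gene, before the start that the table uses. Epn1 holds GGGCGG at 69 to 74 bases and TGACNNNGC on the opposite strand at 55 to 63 bases before the start. Of the others, Wdfy1 holds 1 GGGCGG and Slc16a12 holds 1 TATAAA. Of 33469 windows of the same length, 30.5% held GGGCGG, 34.0% CCAAT, 12.9% TATAAA, 10.1% TGACNNNGC, 7.67% TTCNNNGAA and 5.59% CACGTG. The GC content was 57.6% for Rnase4, 62.4% for Epn1 and 55.6% for Wdfy1, above the median window at 51.2%, and 40.8% for Ghr and 39.6% for Slc16a12, below it. A match is a description of the letters.

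Signals below are on the log2 scale after background correction and quantile normalization over the 48 arrays, on which a difference of 1 is 2-fold. All 6 probes were detected on every array of every group, and all passed the filter on dim probes in both tissues. Tests were made with limma on all 4 groups of a tissue, with p-values adjusted over all probes tested (12268 in the cortex, 11972 in the medulla) and a threshold of 0.05. Under the names of the signal table, the arrays of rats given apocynin alone had no part in the choice of the genes. In the log2 table, the arrays apocynin 2, 4 and 6 of each tissue carry HLP+Apocynin names, so this depends on the naming. The control arrays did, so the comparison of apocynin with control is not fully independent of that choice. The HLP arrays had a part too, which holds for the comparison of HLP with control. The labels number the arrays of a group and do not name the rats, so p-values measure the spread between these samples.

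**Figure D1:**
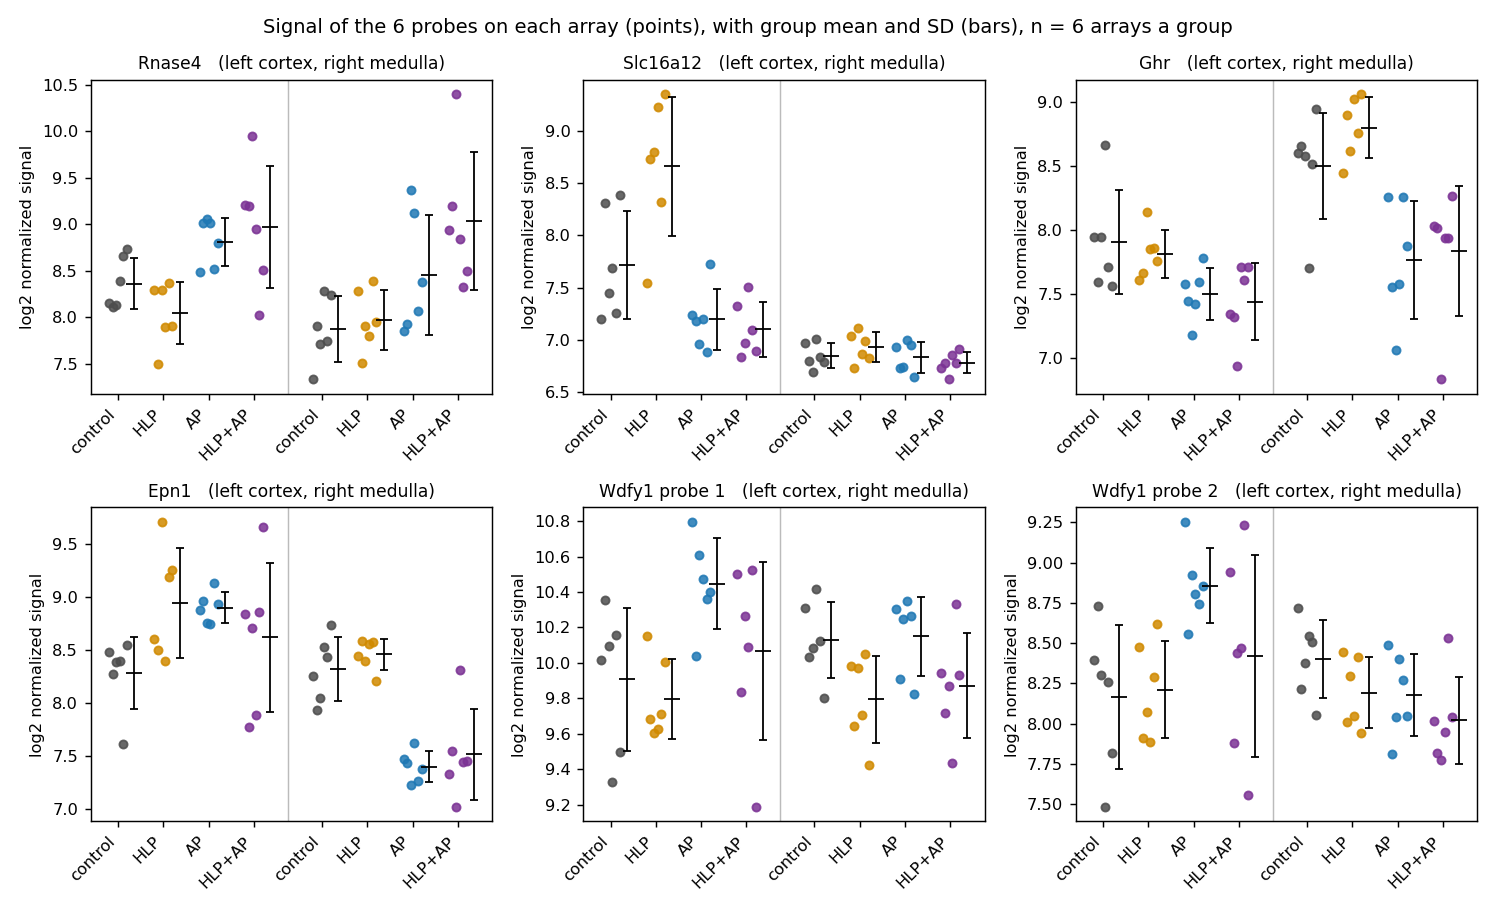
Log2 normalized signal (y axis) of the 6 probes on each array (points) in the 4 groups of the cortex and of the medulla (x axis), with the group mean and SD of 6 arrays. Rnase4 was highest and Ghr lowest on apocynin arrays of both tissues, Slc16a12 spread in the cortex and stayed between 6.62 and 7.12 in the medulla, and Epn1 was low on most apocynin arrays of the medulla.

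Rnase4 was higher on the arrays of both apocynin groups, in both tissues. In the cortex the log2 signal ran from 8.11 to 8.74 (median 8.27) in controls and from 7.50 to 8.37 (median 8.10) in HLP-fed rats. With apocynin alone it ran from 8.49 to 9.05 (median 8.91), and in HLP+Apocynin-fed rats from 8.02 to 9.95 (median 9.07). Of the 12 cortex arrays with apocynin 8 lay above every array without it, and the groups overlapped. Counts of this kind include the HLP+Apocynin arrays that chose the genes, and no share over all probes is given for them. In the medulla Rnase4 ran from 7.33 to 8.29 (median 7.83) in controls and from 7.51 to 8.39 (median 7.93) in HLP-fed rats. The apocynin arrays had 7.85 to 9.37 (median 8.23) and the HLP+Apocynin arrays 8.32 to 10.40 (median 8.89). Here 7 of 12 arrays with apocynin were above all 12 without it, and the HLP+Apocynin group lay wholly above the controls, as groups did not overlap for 3.17% of all probes in that comparison.
With apocynin alone, Rnase4 exceeded control by 0.45 in the cortex (SE 0.23, adjusted p = 0.182 from limma) and by 0.58 in the medulla (SE 0.30, adjusted p = 0.273), so neither difference passed the test. The 95% intervals were -0.02 to 0.92 and -0.04 to 1.20. As a description, HLP+Apocynin arrays exceeded controls by 0.61 in the cortex and 1.16 in the medulla, and exceeded HLP arrays by 0.93 and 1.06. Over all arrays with and without apocynin, a contrast that both tables' names leave the same, the mean was 8.89 ± 0.48 against 8.20 ± 0.34 in the cortex and 8.74 ± 0.73 against 7.92 ± 0.33 in the medulla (SD, n = 12). HLP alone differed from control by -0.32 in the cortex (adjusted p = 0.432) and 0.10 in the medulla (adjusted p = 0.999). In the medulla limma called 0 of the 6 probes and 0 of all probes for HLP against control, with 794 at an unadjusted p under 0.05, and the test of the study's methods left 0 after Benjamini-Hochberg adjustment.

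The 2 highest medulla arrays for Rnase4, HLP+Apocynin 3 at 10.40 and apocynin 3 at 9.37, were also the 2 highest of the 24 for both marker lists of stromal and immune cells. Smooth muscle and fibroblast markers (9 of 9 genes on the list with a probe detected) averaged 10.27 and 9.24 there, against 7.76 to 8.25 in controls, 7.82 to 8.32 in HLP, 8.01 to 9.24 in apocynin and 8.27 to 10.27 in HLP+Apocynin arrays. Macrophage and leukocyte markers (12 of 13 detected) averaged 9.93 and 9.18 on these 2 arrays, against 7.93 to 8.45 in controls, 7.91 to 8.25 in HLP, 8.11 to 9.18 in apocynin and 8.08 to 9.93 in HLP+Apocynin arrays. In the cortex, HLP+Apocynin 3 was highest for Rnase4 (9.95) and for both lists (9.52 and 9.39). Without the arrays numbered 3, Rnase4 exceeded control by 0.40 with apocynin in each tissue, and HLP+Apocynin exceeded control by 0.41 in the cortex and by 0.89 in the medulla. HLP+Apocynin 1, 2 and 4 remained in these values. In the cortex their macrophage markers averaged 8.57 to 8.60, above every control and HLP array. Their fibroblast markers there, 8.13 to 8.31, stayed within the control range. In the medulla their fibroblast markers averaged 8.59 to 8.78, above every control and HLP array. On the cortex arrays HLP+Apocynin 5 and 6, macrophage markers averaged 7.96 and 8.05. The part of these cells in the remaining differences was not tested.

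Ghr was lower on the arrays of both apocynin groups, in both tissues. In the cortex its signal was 7.56 to 8.67 (median 7.83) in controls, where control 4, nearer the medulla, was the array at 8.67. HLP arrays had 7.61 to 8.14 (median 7.81), apocynin arrays 7.18 to 7.78 (median 7.51) and HLP+Apocynin arrays 6.94 to 7.71 (median 7.48). In the medulla Ghr was 7.71 to 8.95 (median 8.59) in controls, and here control 4, nearer the cortex, was the array at 7.71. The other medulla groups had 8.44 to 9.06 (median 8.83) with HLP, 7.07 to 8.26 (median 7.72) with apocynin and 6.83 to 8.26 (median 7.98) with HLP+Apocynin. All 12 arrays with apocynin lay below the mean of the arrays without it in each tissue. Apart from control 4, an exception made after seeing the data, every medulla array without apocynin lay above every medulla array with it. This pooling includes the arrays that chose the genes, and no share over all probes is given for it. The HLP and HLP+Apocynin arrays of the medulla did not overlap, as for 4.26% of all probes.
Apocynin alone differed from control by -0.40 in the cortex (SE 0.16, adjusted p = 0.0868 from limma) and by -0.74 in the medulla (SE 0.23, adjusted p = 0.0556), with intervals of -0.73 to -0.07 and -1.22 to -0.26. Here too the position of the cortex controls moved with the signal: controls 1, 3 and 4 (0.32, 0.06 and -0.93) had 7.95, 7.95 and 8.67, whereas controls 2 and 6 (1.10 and 1.32) had 7.59 and 7.56, beside the apocynin mean of 7.50. Its part in the cortex difference was not tested. The medulla controls lay farthest from the cortex by median position, and the part of that in the medulla difference was not tested either. Without the 3 arrays nearer the other tissue the cortex difference was -0.25 (adjusted p = 0.234) and the medulla difference -0.86 (adjusted p = 0.0277). In the medulla the test was also passed without control 4 alone (-0.90, adjusted p = 0.0129), without apocynin 1 (adjusted p = 0.0408) or apocynin 5 (adjusted p = 0.0455), without both arrays numbered 3 (-0.60, adjusted p = 0.0428) and by the log2 table's names (-0.86, adjusted p = 0.0178). Under those names the cortex difference was -0.49 (adjusted p = 0.0384). In all, 5 of 15 alternatives called the medulla difference and 3 of 15 the cortex difference. Of 12 runs without 1 array, 3 called the medulla difference and 0 the cortex difference. HLP+Apocynin arrays had -0.46 against control in the cortex and -0.66 in the medulla, and -0.37 and -0.96 against HLP, as a description. HLP alone differed from control by -0.09 in the cortex (adjusted p = 0.799) and 0.30 in the medulla (adjusted p = 0.947). The arrays with the lowest Ghr, HLP+Apocynin 3 and apocynin 3 in each tissue, were the 2 with the highest fibroblast markers of each tissue (10.27 and 9.24 in the medulla, 9.52 and 8.62 in the cortex). The part of these cells in the differences of Ghr was not tested.

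**Figure D2:**
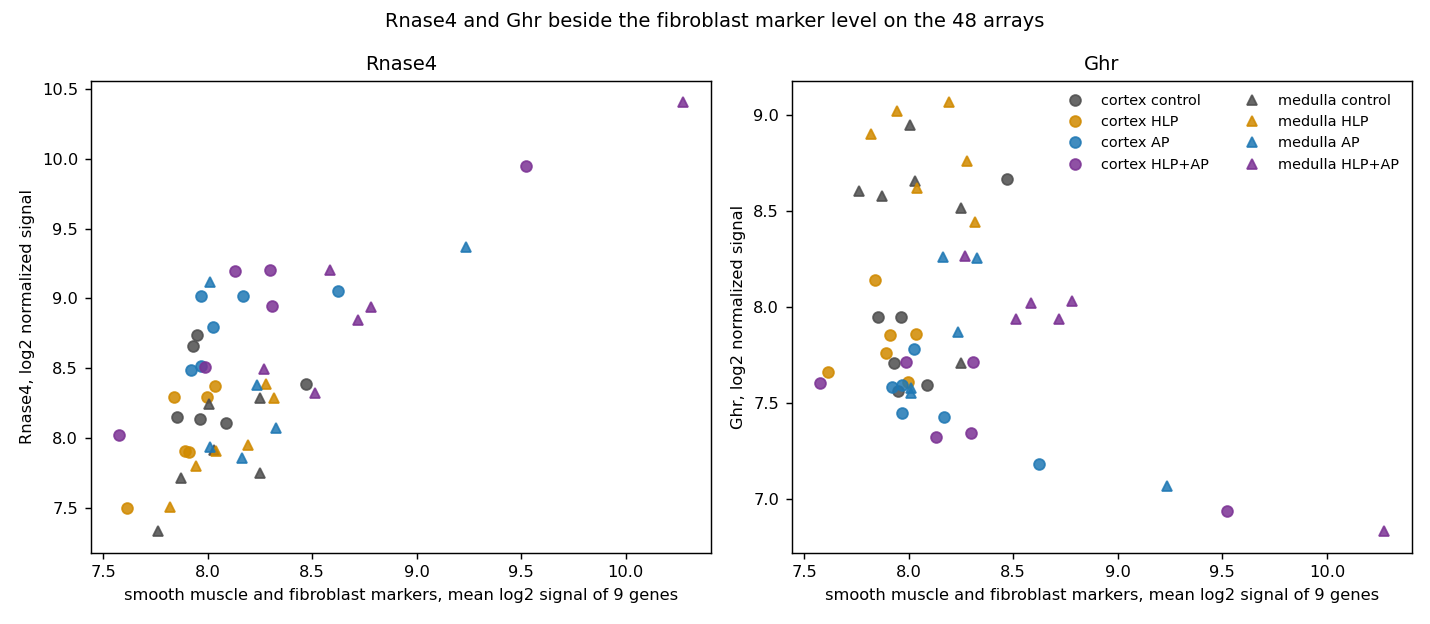
Log2 signal of Rnase4 (left) and Ghr (right) on the y axis against the mean log2 signal of 9 smooth muscle and fibroblast markers on the x axis, for 48 arrays (circles, cortex; triangles, medulla; colours, treatments). The array at the far right, medulla HLP+Apocynin 3, had the highest Rnase4 (10.40) and the lowest Ghr (6.83).

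Epn1 was down-regulated with apocynin alone in the medulla, and its difference from control had the other sign in the cortex without passing the test. In the medulla the signal was 7.93 to 8.73 (median 8.34) in controls against 7.22 to 7.62 (median 7.41) in apocynin arrays, without overlap. HLP arrays there had 8.20 to 8.58 (median 8.50), and HLP+Apocynin arrays 7.01 to 8.31 (median 7.44), of which 5 of 6 lay below every control. That count is a description, as the contrast of HLP+Apocynin with control chose the genes. The fall with apocynin alone was by 0.92 (SE 0.16, interval -1.25 to -0.60, adjusted p = 0.00178 from limma, lower in 6 of 6 arrays). Epn1 was the 1 probe of the 6 called in this comparison, in which 7.14% of all probes tested were called and the groups did not overlap for 4.00%. The adjusted p stayed between 0.00177 and 0.00617 when any 1 array of the compared groups was left out. With only the 3 arrays a group that have the same group in both tables the difference was -0.93 with an adjusted p of 0.0599.
In the cortex Epn1 was 7.61 to 8.55 (median 8.39) in controls and 8.75 to 9.14 (median 8.90) with apocynin alone, again without overlap (9.38% of all probes) but with apocynin higher. HLP arrays had 8.39 to 9.71 (median 8.89) and HLP+Apocynin arrays 7.77 to 9.66 (median 8.77), with both extremes outside the apocynin range. Apocynin differed from control by 0.62 (SE 0.26, adjusted p = 0.103) and HLP by 0.66 (SE 0.26, adjusted p = 0.14), neither past the test. By the log2 table's names these were 0.20 (adjusted p = 0.708) and -0.10 (adjusted p = 0.98). The difference of the apocynin effect between the tissues, cortex minus medulla, was itself tested and was 1.54 (SE 0.31, interval 0.91 to 2.17, adjusted p = 0.000538 from limma over 48 arrays), a 2.91-fold ratio. That test called 2 of the 6 probes and 17.1% of 12900 probes. By the log2 table's names the difference was 1.27 (adjusted p = 0.00825), and 1.57 (adjusted p = 0.00153) without the arrays nearer the other tissue. HLP+Apocynin arrays, as a description, differed from control by 0.34 in the cortex and -0.81 in the medulla, and from HLP by -0.32 and -0.94, the same sign in both. Over the 12 cortex arrays with and the 12 without apocynin the difference was 0.15.

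**Figure D3:**
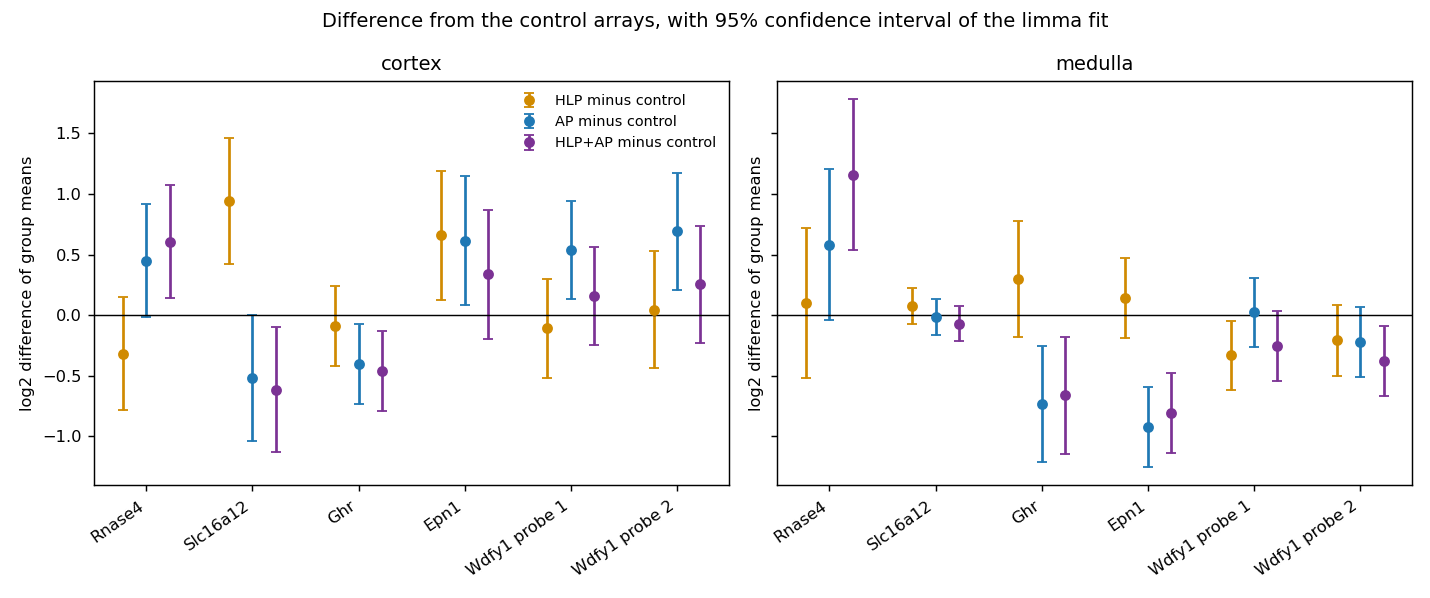
Log2 difference of group means from control (y axis) for the 6 probes (x axis) in the cortex and the medulla, for HLP, apocynin (AP) and HLP+Apocynin (HLP+AP), with 95% confidence intervals of the limma fit. For Epn1 the apocynin interval lies above 0 in the cortex (0.09 to 1.15) and below 0 in the medulla (-1.25 to -0.60); intervals of HLP+AP minus control are drawn for the spread only, as that contrast chose the genes.

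Slc16a12 varied in the cortex and hardly in the medulla. Its cortex signal was 7.20 to 8.39 (median 7.57) in controls and 7.54 to 9.35 (median 8.76) in HLP-fed rats. It was 6.89 to 7.72 (median 7.19) with apocynin alone and 6.83 to 7.50 (median 7.03) with HLP+Apocynin, the latter wholly below the HLP group, a separation found for 6.92% of all probes. In the medulla all 24 arrays lay between 6.62 and 7.12, with group means from 6.78 to 6.93.
HLP against control gave 0.94 in the cortex (SE 0.25, interval 0.42 to 1.46, adjusted p = 0.0473 from limma, higher in 5 of 6 arrays), the 1 probe of the 6 called in a comparison with 2.40% of all probes called. Both groups had a part in the choice of the genes, so this test is not independent of that choice. The position between the tissues moved with this difference: controls 2 and 6, at 1.10 and 1.32, had 8.31 and 8.39, whereas controls 1, 3, 4 and 5, at -0.93 to 0.55, had 7.20 to 7.69, and HLP arrays lay at 1.08 to 1.56. Its part in the difference was not tested. This call held in 5 of 15 alternatives. It ended by the log2 table's names (0.85, adjusted p = 0.253), without background correction (adjusted p = 0.0631), without the arrays nearer the other tissue (adjusted p = 0.0799) and in 9 of 12 runs that left out 1 array, those without HLP 2, 3, 4, 5 or 6 or control 1, 3, 4 or 5 (adjusted p = 0.0616 to 0.119). With apocynin alone the difference from control was -0.52 (SE 0.25, adjusted p = 0.166) in the cortex and -0.02 (SE 0.07, interval -0.17 to 0.13, adjusted p = 0.921) in the medulla. The lowest control mean among the listed genes in the medulla was 6.47, so a fall of the cortex size from the medulla control mean of 6.85 could not have been measured. The difference of the apocynin effect between the tissues, -0.50 (SE 0.27, adjusted p = 0.218), did not pass its test. As a description, HLP+Apocynin differed from HLP by -1.56 and from control by -0.61 in the cortex. With apocynin present, the HLP+Apocynin mean of 7.10 ± 0.26 was close to the apocynin mean of 7.20 ± 0.29 (SD, n = 6).

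Wdfy1 had higher group means with apocynin alone in the cortex, where 1 of 2 probes passed the test, and neither passed in the medulla. Its brighter probe, called probe 1 here, had 9.33 to 10.35 (median 10.06) in cortex controls, 9.61 to 10.15 (median 9.70) with HLP, 10.04 to 10.80 (median 10.44) with apocynin and 9.19 to 10.52 (median 10.18) with HLP+Apocynin. Probe 2 had 7.48 to 8.73 (median 8.28), 7.89 to 8.62 (median 8.18), 8.56 to 9.25 (median 8.83) and 7.56 to 9.23 (median 8.45) in the same order. Both probes overlapped between all these groups. Apocynin differed from control by 0.54 for probe 1 (SE 0.20, adjusted p = 0.0621) and by 0.69 for probe 2 (SE 0.23, interval 0.21 to 1.17, adjusted p = 0.0431 from limma, higher in 6 of 6 arrays). Probe 2 was thus the 1 probe of the 6 called for apocynin against control in the cortex, where 16.8% of all probes were called.
The call of probe 2 held in 6 of 15 alternatives. It was lost without the arrays nearer the other tissue (0.55, adjusted p = 0.114), by the log2 table's names (0.62, adjusted p = 0.0590), without the arrays numbered 3 (0.68, adjusted p = 0.0720) and in 9 of 12 runs without 1 array, those without apocynin 1, 3, 4, 5 or 6 or control 3, 4, 5 or 6 (adjusted p = 0.0585 to 0.114). In the medulla the probes differed from control by 0.02 (SE 0.14, adjusted p = 0.949) and -0.22 (SE 0.14, adjusted p = 0.383) with apocynin, over group means of 9.80 to 10.15 for probe 1 and 8.02 to 8.40 for probe 2. The apocynin effect differed between the tissues for probe 2 by 0.92 (SE 0.28, adjusted p = 0.0187), which became 0.80 (adjusted p = 0.0517) without the arrays nearer the other tissue. For probe 1 it differed by 0.52 (SE 0.25, adjusted p = 0.156). Cortex HLP+Apocynin arrays differed from control by 0.16 and 0.26, medulla arrays by -0.26 and -0.38. Over the 24 arrays of a tissue the probes of Wdfy1 went together, with r = 0.95 in the cortex and 0.74 in the medulla, a description over arrays that share groups and blocks.

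Set side by side for apocynin alone against control, the group means of Rnase4 were higher and those of Ghr lower in both tissues. None of these differences of Rnase4 and Ghr passed the test in the main fit. Epn1 had 0.62 in the cortex and -0.92 in the medulla, Slc16a12 -0.52 and -0.02, Wdfy1 probe 1 had 0.54 and 0.02 and probe 2 had 0.69 and -0.22. The description of all 5 genes as shifted in both tissues is not met in this contrast by Epn1 and Wdfy1 probe 2, whose signs differed. Nor is it met by Wdfy1 probe 1, whose medulla difference was near 0. Slc16a12 was also near 0 in the medulla, but its signal there was too low for a fall of the cortex size to be measured. Such a fall can therefore not be judged. In the order of the 8 group means Rnase4 went from 9.03 in the medulla of HLP+Apocynin-fed rats to 7.87 in the medulla of controls, and 0 of 7 steps between neighbours exceeded the SDs of both. Ghr had 1 such step, between control medulla (8.50) and control cortex (7.90). Epn1 had 1, between control cortex (8.28) and HLP+Apocynin medulla (7.51). Slc16a12 had 1, between HLP cortex (8.66) and control cortex (7.72). Wdfy1 probe 1 had 1, between apocynin cortex (10.45) and apocynin medulla (10.15), and probe 2 had 0.

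**Figure D4:**
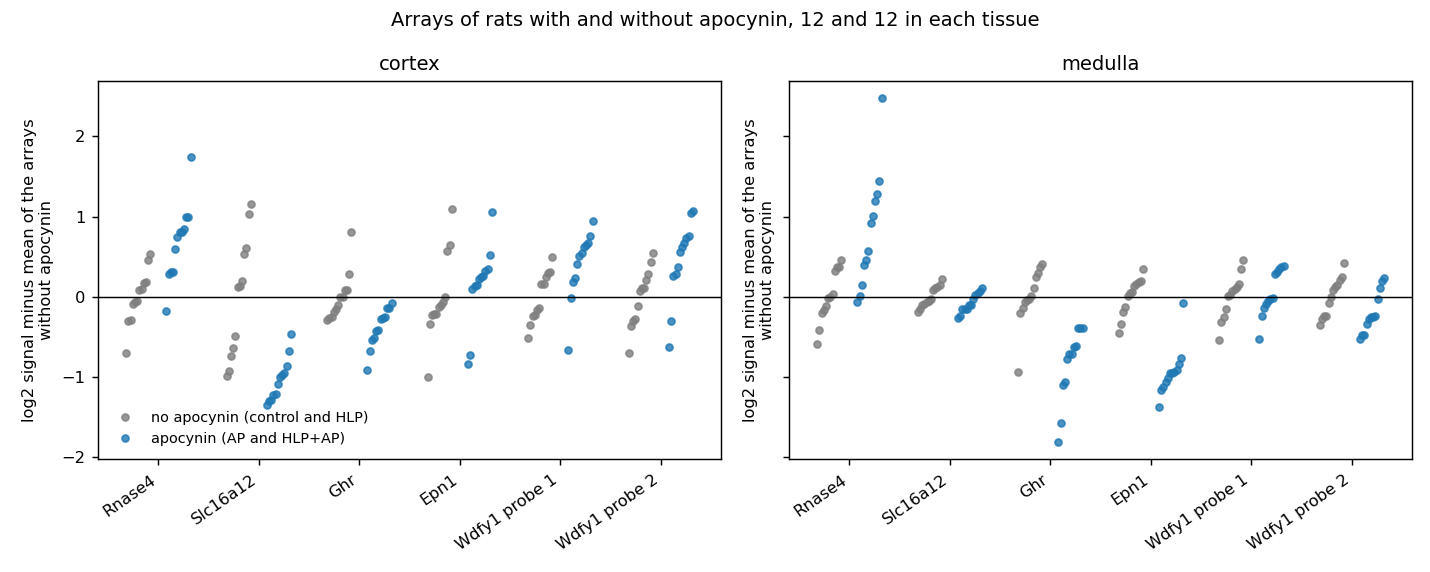
Log2 signal minus the mean of the tissue's arrays without apocynin (y axis) for the 6 probes (x axis), with 12 arrays without apocynin (grey) and 12 with it (blue) in each tissue. In the medulla 11 of 12 Epn1 arrays with apocynin lie below every array without it, and in the cortex 7 of 12 for Slc16a12. This contrast includes the HLP+Apocynin arrays that chose the genes, and no share over all probes is given for these counts.

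Cortex and medulla differed for 3 of the 6 probes, averaged over the treatments, where 60.5% of all probes were called. All groups enter this test, also those that chose the genes, so it is not independent of that choice. Slc16a12 was higher in the cortex by 0.82 (SE 0.10, adjusted p = 1.76e-09 from limma) and Epn1 by 0.76 (SE 0.11, adjusted p = 1.39e-07). Ghr was lower in the cortex, by a difference of -0.56 (SE 0.10, adjusted p = 8.52e-06). Among controls the cortex and medulla means were 7.72 and 6.85 for Slc16a12, and 7.90 and 8.50 for Ghr. Rnase4 had 0.21 (adjusted p = 0.171), Wdfy1 probe 1 had 0.07 (adjusted p = 0.512) and probe 2 had 0.21 (adjusted p = 0.0576), and these 3 turned to -0.11, -0.23 and -0.11 with median scaling. Epn1 in controls was 8.28 ± 0.34 in the cortex and 8.32 ± 0.30 in the medulla (SD, n = 6), whereas in HLP-fed rats it was 8.94 ± 0.52 and 8.46 ± 0.15, and with apocynin alone 8.90 ± 0.15 and 7.40 ± 0.15. Slc16a12, Epn1 and Ghr kept their calls under each alternative run for this comparison, and 4 of the 8 alternatives called 4 members. Wdfy1 probe 2 was called by the log2 table's names (adjusted p = 0.0400) and without the arrays nearer the other tissue (adjusted p = 0.0183), and Rnase4 without the arrays numbered 3 (0.27, adjusted p = 0.0307).

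Within groups, the Rnase4 signals of the tissues were also compared, as a description. Over the 24 treatment and number pairs, the deviation of the cortex array from its group mean correlated with that of the medulla array with r = 0.78 and rho = 0.74. Of 12899 probes 4.98% had an r at least as high, and the median over all probes was 0.17. Without the 2 pairs farthest from the median, HLP+Apocynin 3 and 5, r was 0.65, by the log2 table's names 0.75, and without the arrays numbered 3 it was 0.69. The mean signals of the fibroblast and of the macrophage markers correlated in the same way, with r = 0.89 and 0.88, and HLP+Apocynin 3 was highest in both tissues for both lists and for Rnase4. Their part in the correlation of Rnase4 was not tested. For the other 5 probes r ran from -0.38 (Epn1) to 0.36 (Wdfy1 probe 2). Ghr had 0.08, which became 0.55 without the arrays nearer the other tissue and -0.47 without the arrays numbered 3.

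**Figure D5:**
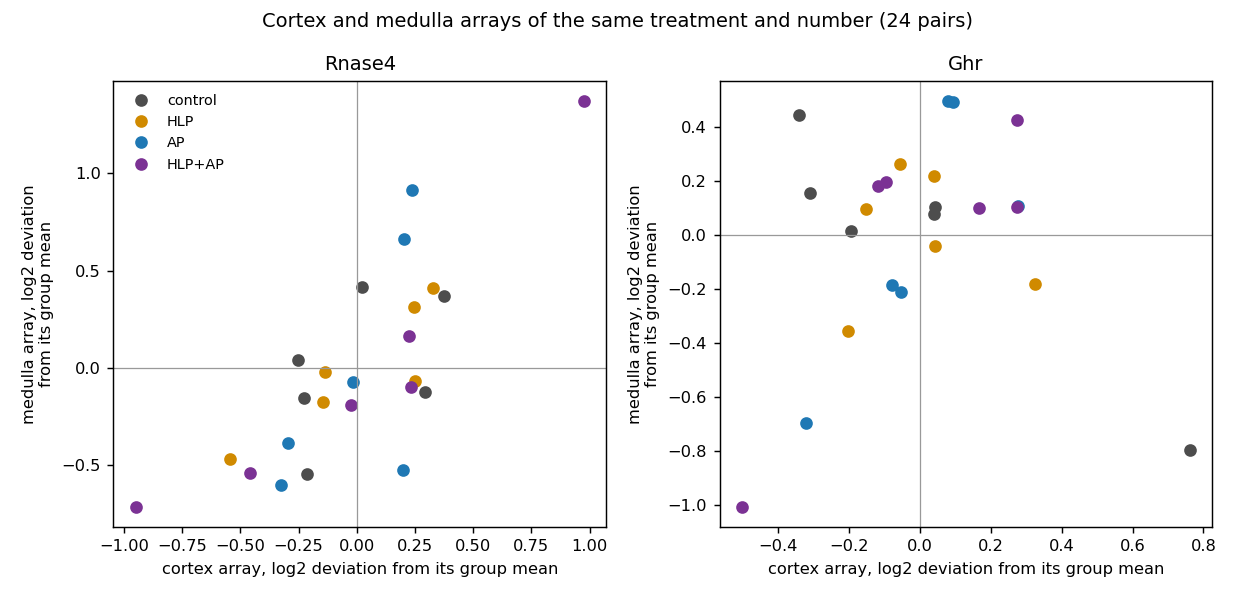
Log2 deviation of the medulla array from its group mean (y axis) against that of the cortex array (x axis) with the same treatment and number, for Rnase4 (left) and Ghr (right), 24 pairs coloured by treatment. Rnase4 deviations rise together (r = 0.78), with HLP+Apocynin 3 at the upper right, whereas for Ghr r is 0.08.

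The genes with the most similar pattern to each member were sought among 9103 genes, by Pearson r over 48 arrays after the tissue mean was subtracted, with the r after subtraction of each group mean beside it. For Rnase4 these were Loxl1 (r = 0.89, and 0.90 within groups) and Lox (0.87 and 0.80), which encode enzymes that cross-link elastin and collagen, and Ctsk (0.88 and 0.87), a protease that degrades collagen. For Slc16a12 they were Manba (0.90 and 0.81), a lysosomal mannosidase, Tmx4 (0.89 and 0.71), a membrane protein of the endoplasmic reticulum, and Kcnj15 (0.88 and 0.80), a potassium channel. For Ghr they were Asrgl1 (0.90 and 0.85), an asparaginase, Tiprl (0.90 and 0.86), a regulator of phosphatases, and Me1 (0.89 and 0.84), the cytosolic malic enzyme that makes NADPH. For Epn1 they were the deubiquitinase Usp7 (0.89 and 0.80), the depalmitoylating enzyme Lypla2 (0.89 and 0.81) and Rnf10 (0.88 and 0.77), a RING finger protein. For Wdfy1 they were the kinases Gsk3b (0.78 and 0.75) and Cdk14 (0.75 and 0.71), and Sdad1 (0.75 and 0.60). These values are descriptive, over arrays that share groups, blocks and depth of signal.

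Other genes of the members' pathways were read from lists, again for apocynin alone against control. Of 23 genes of the growth hormone and IGF axis tested in the cortex, Ghr included, 2 rose and 4 fell, with a median difference of -0.01, whereas of all 8759 genes tested 701 rose and 629 fell. The fallen included Prlr, the prolactin receptor and closest relative of Ghr (-1.80, SE 0.35, adjusted p = 0.000731 from limma), and Igf2 (-0.18, adjusted p = 0.00136), at a low signal of 6.81 in controls. The risen genes were Igfbp1, which encodes a secreted binding protein of IGFs (0.74, SE 0.23, adjusted p = 0.0252), and the kinase Jak2 (0.28, adjusted p = 0.0374). In the medulla 0 of 22 genes of this axis were called.
Of 27 clathrin adaptor and coat genes in the cortex 5 rose and 1 fell. Cltc, the clathrin heavy chain, rose by 0.28 (SE 0.05, adjusted p = 0.000589) and Ap2m1, a subunit of the AP2 adaptor, by 0.35 (SE 0.08, adjusted p = 0.00481), while Amph fell by 0.09 at a signal of 6.62 in controls. In the medulla 3 of 26 rose and 3 fell, against 265 and 355 of 8560 genes tested. Reps1, which encodes an EH domain partner of epsins, rose by 0.40 (SE 0.08, adjusted p = 0.00441) and Ap2b1, another AP2 subunit, by 0.59 (SE 0.14, adjusted p = 0.0168). Next to Epn1 itself, Cltb, a clathrin light chain, fell by 0.39 (SE 0.09, adjusted p = 0.0108).
Of 25 genes of FYVE and phosphatidylinositol 3-phosphate binding proteins in the cortex 2 rose, Fgd4 by 0.04 and Rufy2 by 0.10, at control signals of 6.48 and 6.80. In the medulla 1 of 23 was called, Zfyve27, which fell by 0.28 (SE 0.05, adjusted p = 0.00123). Of 14 SLC16 carriers and creatine genes 1 fell in the cortex, Gamt, which encodes the enzyme of the last step of creatine synthesis (-0.49, SE 0.17, adjusted p = 0.0455), and 0 were called in the medulla. Of 6 RNase A family genes 1 fell in the cortex, Rnase1l2 by 0.03 at a signal of 6.53, and 0 were called in the medulla. Beside these counts, 701 rose and 629 fell of all 8759 genes tested in the cortex, and 265 and 355 of 8560 in the medulla.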

How the data were processed

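The authors deposited a table of raw Illumina bead intensity signals, in which every signal has its detection p-value, and a table of log2 values that they had normalized within each tissue. No columns of the authors' own comparisons were used. The deposited detection p-values set the background. Signals were background corrected with the nec function of limma 3.58.1 in R 4.3.3 (offset 16), quantile normalized over 48 arrays and log2 transformed. Probes with a detection p under 0.05 on at least 6 of the 24 arrays of a tissue were tested, 12268 in the cortex and 11972 in the medulla. The 4 groups of a tissue were fitted with lmFit and eBayes with a trend, and p-values were adjusted by Benjamini-Hochberg over all probes tested. Differences between tissues were fitted over 48 arrays and 12900 probes. The scripts were tested on simulated data. The number of arrays limits the precision.

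Arrays take the names of the signal table. Columns were matched between the 2 tables by their values, with r = 1 for the match and at most 0.997 for any other column. Of the probes 13650 have 1 gene symbol in the platform annotation and 8576 have none. Promoter windows came from RefSeq, GRCr8. The members and lists were chosen with earlier results of these data known. Named beside the members were the 3 genes of most similar pattern and, from each pathway list, up to 2 called genes in each direction. Alternatives changed the background correction, scaling, filter, trend, arrays, array names, replicate block and test.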

Additional observations from a re-analysis of the deposited data

Results flagged for a closer look

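In 48 sets, each 1 probe in 1 group of 6 arrays, 5 had a single array far from the rest, and chance gives about 1 in 20. The sets are not independent, as the probes share the arrays. For Ghr, cortex control 4 had a log2 signal of 8.67 (next 7.95) and medulla control 4 had 7.71 (next 8.51), both arrays nearer the other tissue. Ghr was 6.83 in medulla HLP+Apocynin 3 (next 7.94), the array with the highest fibroblast markers. Epn1 was 7.61 in cortex control 5 (next 8.28). Wdfy1 probe 2 was 8.53 in medulla HLP+Apocynin 5 (next 8.04), the array between the tissues. The effect of apocynin alone differed between cortex and medulla for Epn1, by 1.54, and for Wdfy1 probe 2, by 0.92, both by a test of the difference itself.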

How the results depend on the processing

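Rnase4 and Ghr kept their direction for apocynin against control in both tissues, and Epn1 its fall in the medulla, under each alternative run. Counts below are of all probes called, or of the 6 member probes. With the 3 arrays a group that have the same group in both tables, apocynin against control called 929 cortex and 141 medulla probes (main 2057 and 855) with 0 members in each, HLP in the cortex 728 (main 294), HLP+Apocynin against control 713 and 143 (main 1968 and 883) and against HLP 913 and 0 (main 2257 and 987), and the difference of the apocynin effect 1006 with 0 members (main 2203). Slc16a12 then had 0.040 with apocynin and -0.027 with HLP in the medulla, and Wdfy1 probe 2 had -0.18 with HLP in the cortex. The authors' log2 values called 187 for HLP in the cortex with 0 members, and 1 member for the difference of the apocynin effect. With the names of their own table these values called 2 members for apocynin in the cortex, 1509 with 3 members in the medulla, 0 for HLP in the cortex with 0 members, 1261 and 556 for HLP+Apocynin against control, 116 against HLP in the medulla, and 1 member for the difference of the effect. HLP in the cortex then gave -0.13 for Epn1 and -0.25 for Wdfy1 probe 2, Slc16a12 had -0.19 with HLP in the medulla, and its deviations had r = 0.016. With those names on the signals normalized here, apocynin called 2 members in the cortex and 1834 with 2 members in the medulla, HLP 2 with 0 members in the cortex, HLP+Apocynin 1079 against control in the cortex and 219 against HLP in the medulla. Epn1 then had -0.10 and Wdfy1 probe 2 -0.22 with HLP in the cortex, Slc16a12 -0.11 with HLP in the medulla, and r = 0.052 for its deviations.

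Median scaling called 0 members for apocynin in the cortex, 384 probes in the medulla, 108 with 0 members for HLP in the cortex, 1746 and 88 for HLP+Apocynin against control and against HLP in the medulla, and 1093 with 1 member for the difference of the effect. It turned Wdfy1 probe 1 with apocynin in the medulla to -0.062, Ghr with HLP in the cortex to 0.014, Rnase4 and Epn1 with HLP in the medulla to -0.052 and -0.045, cortex against medulla to -0.11 for Rnase4, -0.23 for Wdfy1 probe 1 and -0.11 for probe 2, and r of the Ghr deviations to -0.10. Calls higher among all called went from 39.8% to 14.6% for apocynin in the medulla under median scaling, and from 55.9% to 38.8% in the cortex with the authors' values. Probes detected on all 24 arrays gave 636 with 0 members for apocynin in the cortex. Without a trend 0 members were called there, and 145 with 0 members for HLP. Without background correction 0 members were called for HLP in the cortex. Without a filter 3991 were called for apocynin in the cortex, 80 with 0 members for HLP, and 3568 for the difference of the effect. Only the 12 arrays compared gave 4 members for apocynin in the cortex and 0 with 0 members for HLP, and the methods' t-test gave 2 members, and 1 with 0 members. Cortex against medulla was not run on the authors' values, which were normalized per tissue.

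Equal numbers in cortex and medulla had a median r of 0.37 over 24 pairs (lowest -0.79), 20 over 0.1, and 18 cortex arrays were closest to their own number. With the replicate block, 2 members were called for apocynin in each tissue and 442 probes for HLP in the cortex. For cortex against medulla it called 4 members and 8320 probes (main 3 and 7809), Wdfy1 probe 2 being added. The following were chosen after seeing the data. Without the arrays numbered 3 of both apocynin groups, 0 members were called for apocynin in the cortex and 2 in the medulla, Slc16a12 in the medulla had 0.00094, the difference of the effect for Rnase4 was 0.0048, and the Ghr deviations had r = -0.47. Without the arrays nearer the other tissue, 0 and 2 members were called for apocynin, 0 probes and 0 members for HLP in the cortex, 1479 in the medulla for HLP+Apocynin against control, and 1 member for the difference of the effect, with 0.062 for Ghr and -0.092 for Wdfy1 probe 2 with HLP in the cortex.

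Leaving out 1 array at a time gave 0 to 2 members for apocynin in the cortex and 1 to 2 in the medulla, with 479 (without control 5) to 1197 probes there and 562 without apocynin 3. HLP in the cortex called 0 to 929 probes and 0 to 1 members, the lowest without HLP 3, 4 or 6 or control 1, 3 or 4, with 1 without HLP 5, 14 without control 5, 498 without control 2, 772 without control 6 and the highest without HLP 1. In the medulla HLP+Apocynin called 495 to 1328 against control (without control 5 and control 4, with 557 without HLP+Apocynin 1 and 576 without control 3) and 564 to 1592 against HLP (without HLP 6 and HLP+Apocynin 4, with 565 without HLP 1, 576 without HLP+Apocynin 1 and 643 without HLP+Apocynin 3). In the medulla Wdfy1 probe 1 ran from -0.042 to 0.088 and Slc16a12 from -0.050 to 0.020 with apocynin, and Rnase4 from -0.0087 to 0.19 with HLP. In the cortex with HLP, Wdfy1 probe 2 ran from -0.092 to 0.16 and Ghr from -0.16 to 0.062.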
